A study of Mus musculus with 6 samples.

Results

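Expression of 45 genes of mitosis, the spindle and cytokinesis was compared between normal liver and liver tumors of C3H mice, in which liver tumors arise without treatment in old age. The list names its genes by symbol and was drawn up with earlier results of these data known, so its count of higher genes is not independent evidence of a direction. Every non-control probe that carried one of the 45 symbols was taken, which gave 66 probes among the probes of 34741 genes. For 29 of the 45 genes the array held 1 probe, and for 16 genes it held several. Total RNA of 3 normal livers and 3 macroscopic liver tumors was hybridized to 6 arrays with 1 dye. All samples came from male C3H/HeN mice of the F2 generation, 74 to 75 weeks old by the labels, from the unexposed arm of an arsenic project, kept on CA-1 standard diet and tap water. The tumors carried a Ha-ras mutation, and no agent was given to induce them in this group. The methods name a paired test for 2 groups, but neither they nor the labels said whether a normal liver and a tumor of the same number came from 1 mouse, and the samples were treated as unpaired. P-values therefore measure the spread between these 6 samples. The share of spots well above the local background was 44.7 to 47.2% in the normal livers and 47.3 to 48.9% in the tumors, and no spot was saturated. The 3 normal livers lay on 1 slide and the 3 tumors on another, and a difference between slides and a difference between tissues cannot be told apart. Local background differed with them, its median being 42 to 45 for normal livers and 22 to 23 for tumors, and its part in the values was not tested beyond the change of background correction given with the counts.

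Mitosis separates the copied chromosomes into a pair of daughter nuclei. Its entry is driven by the kinase Cdk1 with A- and B-type cyclins, the spindle checkpoint holds the cell until every kinetochore is attached to microtubules, and the anaphase-promoting complex with Cdc20 then marks securin and cyclin B for destruction. Cytokinesis follows at the central spindle. In adult liver most hepatocytes rest outside the cell cycle, and transcripts of these genes are scarce there. Many of them are transcribed only in the later part of the cycle, through promoters that carry CCAAT boxes, bound by NF-Y, and the cell cycle genes homology region (CHR), bound by the MuvB complex together with B-Myb or FoxM1.

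Of the 45 genes, 36 had a probe well above background on every array of 1 tissue or both and were tested. Transcripts of 32 of the 36 were higher in the tumors, none was lower, and 4 did not pass the test (limma with Benjamini-Hochberg adjustment over all 24901 probes tested, adjusted p under 0.05). Over all 18567 genes tested, 13.1% were higher and 21.0% were lower, or 34.2% in either direction. No gene of the 36 was lower at an unadjusted p under 0.05, and none was lower by the methods' t-test. By that test 20 of the 23 genes past its expression threshold were higher, where 7.20% of all genes past it were, but 16 of the 23 passed the threshold only through the tumors. Of the 7 genes above the threshold in normal liver 4 were higher, against 4.19% of all such genes. Without any filter 32 of the 45 genes were higher, against 4.65% of all genes. They were not the same 32, since Ccnf, Kif2c and Kif4 lost the call and Cdc25c, Bub1b and Kif23 gained it. Of those that gained it, Cdc25c and Kif23 were well above background on no array and Bub1b in 1 tumor. Because a gene seen only in the tumors passes the filter on that account, the count was also taken over the 18 genes well above background on all 6 arrays. Of these 18 genes, 15 were higher, against 11.1% of all genes measured on every array. By role, the genes measured on all 6 arrays and higher were 2 of 3 for Cdk1 and its partners, 1 of 1 for the other kinases and for the checkpoint, 3 of 3 for the anaphase-promoting complex and for the passenger complex, 2 of 3 at the centromere, none of 1 among the spindle motors, 1 of 1 among chromosome proteins and 2 of 2 in cytokinesis. The differences of the 15 genes ran from 1.15 to 4.16 on the log2 scale, which is 2.21- to 17.9-fold, with a median of 6.29-fold. Over the 18 genes the median log2 difference was 2.54, and over all genes measured on every array it was -0.14. Adjusted p-values of the 32 genes ran from 8.50e-05 to 0.0498. With normexp background correction 31 genes were higher, and the median log2 difference over the 36 genes fell from 2.63 to 1.20. With the genes above background in no normal liver taken at their bounds, it was 2.28. For each of the 20 higher genes given here with a log2 difference and not a bound, the difference was smaller with normexp, at 0.87 to 2.97, and for 10 of them the main value was over 1.5 times the normexp one.

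The number of genes detected was compared as well. Of the 45 genes, 21, 22 and 19 were well above background in normal livers 1 to 3, and 38, 39 and 37 in tumors 1 to 3. Of all genes, 52.1 to 54.4% were well above background in the normal livers and 54.6 to 56.1% in the tumors, whose local background was lower. In all, 36 genes were well above background in all 3 tumors, and 12 of these were so in no normal liver, against 2.74% of all genes well above background in all 3 tumors. For these 12 genes the level in normal liver is only bounded, and a fold is given as at least so many times, taken against the lowest signal of a probe with every spot well above background on each array or the gene's own signal where that was higher. The bounds ran from 1.09-fold to 16.6-fold. They hold for the background-subtracted signal only. With normexp correction, which adds an offset of 50 to each signal, the log2 differences of the 12 genes ran from 0.16 to 2.38, were below the bound for all but Kif2c, and passed for 10. The 6 bounded further probes of the 45 genes all lay below their bounds with normexp as well, at -0.06 to 2.14. Values of the 2 tissues did not overlap for 33 of the 36 genes tested, against 51.8% of all genes tested. These were the 32 higher genes and Cks2, whose tumors all lay below all normal livers. Genes that passed the filter only through the tumors count here. The 15 higher genes measured on all 6 arrays are among the 33, and the share of all genes so measured was not taken. With 3 arrays against 3 an exact permutation test of a single gene cannot go below p = 0.1. Bulk tissue was measured, so more cells of a type and more RNA per cell cannot be told apart.

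**Figure D1:**
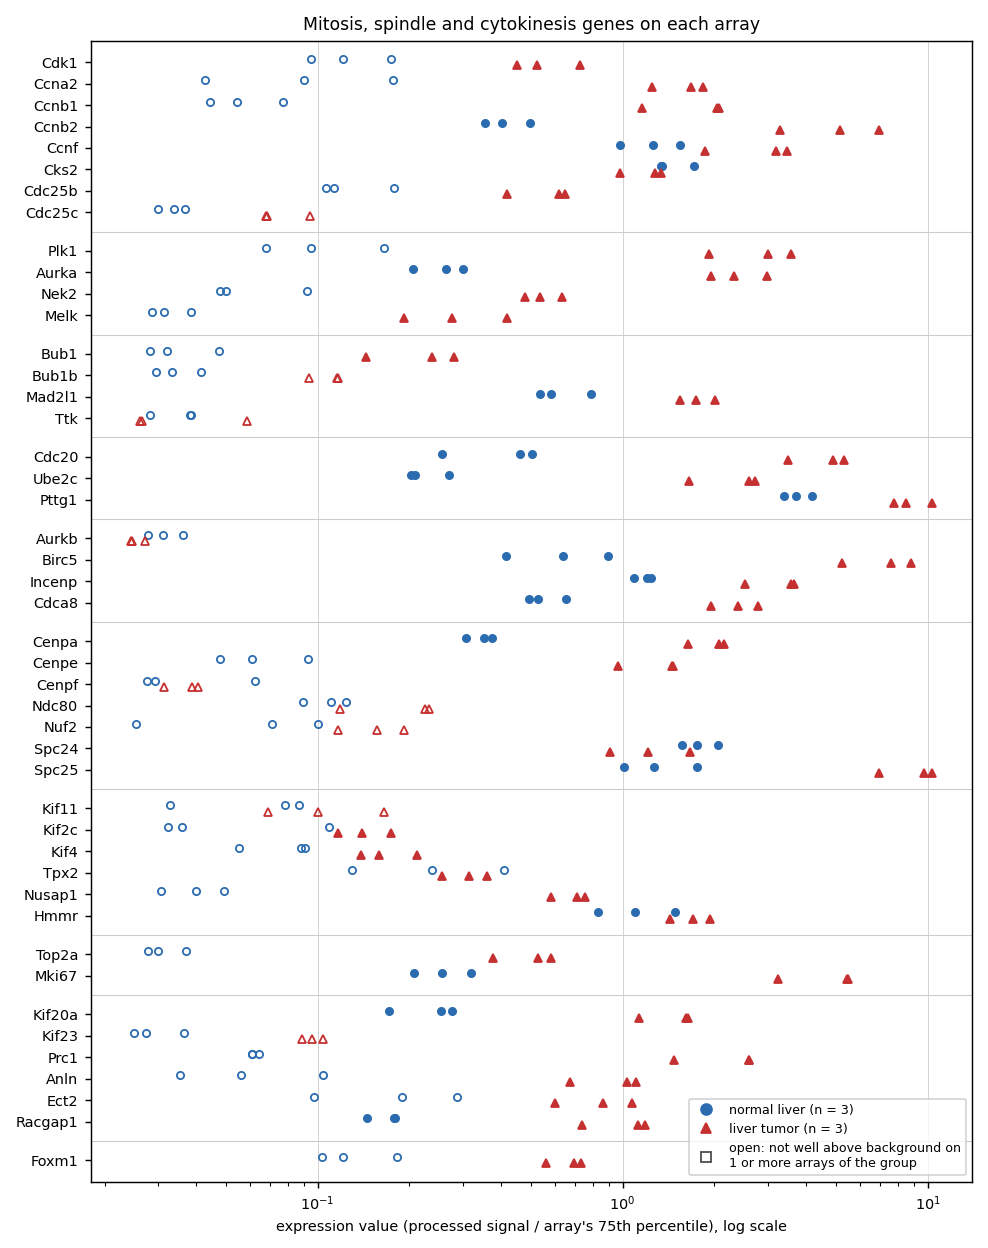
Expression value of each of the 45 genes on each array, on a log axis, as the processed signal divided by the array's 75th percentile. Circles are the 3 normal livers and triangles the 3 tumors, open symbols mark a tissue in which the gene was not well above background on 1 or more arrays, and lines separate the roles. For 33 of the 36 genes tested the circles and triangles do not overlap, against 51.8% of all genes tested. Among the 33 the triangles of Cks2 lie lower, and genes that passed the filter only through the tumors are counted.

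Promoter sequences show what many of these genes have in common apart from their levels. RefSeq promoters on GRCm38.p6, 250 bases before to 50 bases after the annotated start, were at hand for 37 of the 45 genes. Below are the bases from position -110 to position 24 around the start, where position 1 is the first transcribed base, for 5 genes with both motifs and for Cks2, which has CCAAT boxes and was not higher in the tumors. Nek2, Bub1, Cdc25b, Cenpe and Ccnb1 also have CCAAT boxes and no CHR match in these promoters, and all were higher. Hmmr has both motifs and did not pass the test. Capitals mark CCAAT and TTTGAA (CHR) or their reverse complements ATTGG and TTCAAA. Prc1 lies at chr7:80294341-80294474 on the plus strand, Cdk1 at chr10:69352889-69353022 on the minus strand, Ccnb2 at chr9:70421531-70421664 on the minus strand, Cdc20 at chr4:118437320-118437453 on the minus strand, Ube2c at chr2:164769819-164769952 on the plus strand and Cks2 at chr13:51645122-51645255 on the plus strand.
Prc1: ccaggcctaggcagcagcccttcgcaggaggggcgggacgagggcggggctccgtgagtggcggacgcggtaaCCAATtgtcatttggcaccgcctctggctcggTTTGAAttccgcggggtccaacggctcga
Cdk1: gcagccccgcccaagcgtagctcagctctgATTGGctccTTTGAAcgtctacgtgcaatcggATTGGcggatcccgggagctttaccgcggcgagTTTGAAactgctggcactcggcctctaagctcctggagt
Ccnb2: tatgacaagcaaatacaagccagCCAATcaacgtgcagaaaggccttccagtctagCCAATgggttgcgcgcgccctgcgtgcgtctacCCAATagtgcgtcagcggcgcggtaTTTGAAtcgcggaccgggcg
Cdc20: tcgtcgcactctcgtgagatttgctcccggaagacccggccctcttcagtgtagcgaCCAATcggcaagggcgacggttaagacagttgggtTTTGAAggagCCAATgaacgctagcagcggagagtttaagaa
Ube2c: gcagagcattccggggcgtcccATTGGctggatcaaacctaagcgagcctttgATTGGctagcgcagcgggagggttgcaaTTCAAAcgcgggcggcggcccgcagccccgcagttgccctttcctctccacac
Cks2: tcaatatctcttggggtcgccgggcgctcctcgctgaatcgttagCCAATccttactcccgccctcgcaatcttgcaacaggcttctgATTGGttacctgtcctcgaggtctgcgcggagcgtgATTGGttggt

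In Prc1 the CCAAT match began at position -37 and the CHR match at position -5. In Cdk1 a CHR match began at position -15 with CCAAT matches at positions -48 and -80, and in Ccnb2 3 CCAAT matches, at positions -87, -54 and -21, preceded a CHR match at position 5. Both motifs were searched on both strands of the window of 300 bases, and TTTGAA and ATTGG can share a base, as 1 match of each did in Cdca8 at position 19. TTTGAA was found in 25 of the 37 promoters (67.6%), against 18.1% of the promoters of all 27025 genes, 13.9% of the 1529 genes called higher that had a promoter and 39.0% of 123 other mitosis genes. CCAAT was found in 28 of the 37 (75.7%), against 37.9% of all genes, 37.9% of the genes called higher and 52.8% of the other mitosis genes. Promoters with both motifs were 22 of 37 (59.5%), against 7.12% of all genes, 7.19% of the genes called higher and 26.0% of the other mitosis genes. A CHR match began within 50 bases of the start in 23 promoters (62.2%), against 4.92% over all genes. Neither motif was present in this window for 6 genes (Nuf2, Nusap1, Melk, Mad2l1, Pttg1 and Birc5), against 51.1% of all genes, and of these 6 all but Nuf2, which was too dim to test, were higher in the tumors. A match of these letters is a description of the sequence and not evidence of binding, and no test was made of these shares.

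**Figure D2:**
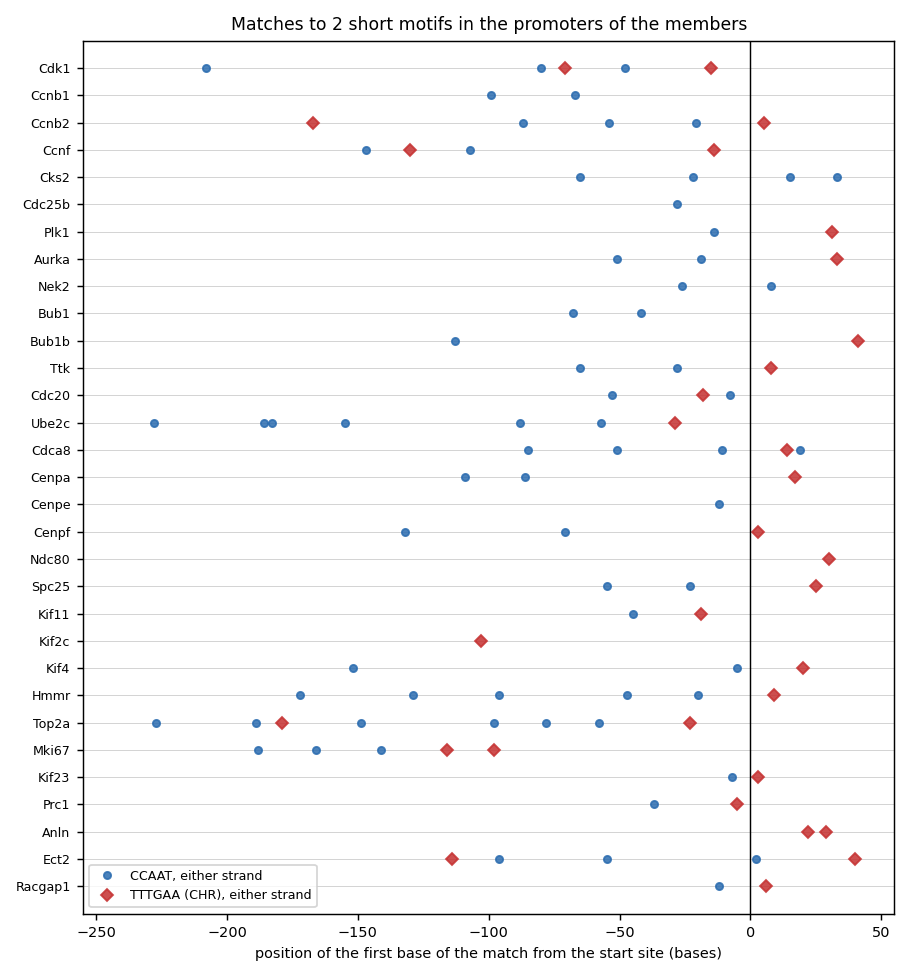
Position of each CCAAT match (circles) and each TTTGAA match (diamonds), on either strand, in the promoters of the 31 of 37 genes that held 1 or both motifs, in bases from the annotated start. Of 32 TTTGAA matches, 24 lie within 50 bases of the start.

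Cdk1, its cyclins and its phosphatases form the entry switch, and 6 of the 7 tested genes of this group rose. For this group and those that follow, 13.1% of all genes tested were higher and 21.0% lower. A tested gene not well above background in all 3 normal livers passed the filter only through the tumors. Cdk1, the kinase that drives entry into mitosis, had expression values of 0.174, 0.121 and 0.0952 in normal livers 1 to 3 and of 0.522, 0.727 and 0.451 in tumors 1 to 3. All tumors lay above all normal livers, of which only 1 was well above background, and the log2 difference was 2.14 (SE 0.27, adjusted p = 0.00292, limma) and 0.87 with normexp correction. A second Cdk1 probe, above background in no normal liver, did not pass (adjusted p = 0.0990), and the remaining probe was too dim to test. Ccnb1 encodes cyclin B1, the main mitotic partner of Cdk1. Its values were 0.0769, 0.0545 and 0.0442 in the normal livers and 2.04, 2.06 and 1.16 in the tumors. Since no normal liver was well above background, the difference was at least 13.0-fold (adjusted p = 0.000222), or 1.95 on the log2 scale with normexp. A second Ccnb1 probe gave at least 1.46-fold (adjusted p = 0.000387). The other cyclins rose as well, Ccna2 by 4.16 on the log2 scale with 1 normal liver well above background (1.98 with normexp background correction), Ccnb2 by 3.57 and Ccnf by 1.15, and Cdc25b, a phosphatase that activates Cdk1, was at least 3.98-fold higher. The call of Ccnf did not hold when normal liver 1 or 2 or tumor 1 or 2 was left out (adjusted p = 0.0616 to 0.0699). It was also lost with the replicate number as a block (adjusted p = 0.0554) and with no filter on dim probes (adjusted p = 0.0707). Cdc25c did not stand above background on any array. Cks2, a small subunit bound by Cdk1, stood apart from its group. Its values were 1.34, 1.72 and 1.35 in the normal livers and 0.984, 1.28 and 1.33 in the tumors, and the difference of -0.29 (SE 0.17) did not pass the test (adjusted p = 0.228).

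All 4 of the other mitotic kinases rose. Plk1, which acts from centrosome maturation to cytokinesis, had values of 0.0953, 0.165 and 0.0679 in the normal livers and 3.56, 3.01 and 1.92 in the tumors. The log2 difference was 4.75 (SE 0.37, adjusted p = 0.000538), with 1 of the 3 normal livers well above background, and it was 2.48 with normexp correction. Melk, a kinase of the AMPK family expressed in dividing cells, had 0.0384, 0.0314 and 0.0287 in the normal livers and 0.276, 0.419 and 0.192 in the tumors, at least 2.16-fold higher (adjusted p = 0.000987), or 0.74 on the log2 scale with normexp. Aurka, the spindle pole kinase, rose by 3.23 (2.10 with normexp), and Nek2, which splits the centrosomes, was at least 4.2-fold higher. The groups did not overlap for any of these kinases, which held for 51.8% of all genes tested. Of the 4 kinases only Aurka was measured on all 6 arrays, and the others passed the filter only through the tumors.

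In the spindle checkpoint, both genes that could be tested rose. Bub1, a kinase recruited to unattached kinetochores, had 0.0475, 0.0320 and 0.0282 in the normal livers and 0.237, 0.281 and 0.144 in the tumors. That is at least 1.64-fold higher (adjusted p = 0.00217), since no normal liver was well above background, or 0.47 on the log2 scale with normexp. Mad2l1 encodes the Mad2 protein that holds back Cdc20. It was measured on all 6 arrays, with values of 0.536, 0.787 and 0.584 in the normal livers and 2.01, 1.74 and 1.54 in the tumors and a difference of 1.49 (SE 0.18, adjusted p = 0.00268). Probes of Mad2l1 disagreed, since a second one gave -0.01 (adjusted p = 0.961). Bub1b was well above background in 1 tumor and Ttk on no array, and neither was tested.

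The 3 genes around the anaphase-promoting complex rose, and all were measured on all 6 arrays. Cdc20, its activator in mitosis, had values of 0.462, 0.506 and 0.255 in the normal livers and 5.33, 4.89 and 3.48 in the tumors, a difference of 3.52 (SE 0.30, adjusted p = 0.000712). Ube2c, its ubiquitin-conjugating enzyme, rose by 3.33 on the log2 scale, or 1.85 with normexp. Its second probe gave at least 13.4-fold, or 2.14 on the log2 scale with normexp. Pttg1 encodes securin, the inhibitor of separase that the complex destroys. Its values of 3.70, 4.17 and 3.37 in the normal livers and 8.52, 10.4 and 7.79 in the tumors gave a difference of 1.24 (SE 0.15, adjusted p = 0.00254). For all 3 genes the lowest tumor lay above the highest normal liver, where the groups did not overlap, in either direction, for 51.8% of all genes tested.

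The chromosomal passenger complex corrects faulty attachments at the centromere and moves to the central spindle in anaphase. Of its 4 genes, 3 rose and the kinase gene Aurkb did not stand above background on any array. Birc5 encodes survivin, and its values were 0.415, 0.897 and 0.639 in the normal livers and 8.83, 7.62 and 5.23 in the tumors, a difference of 3.51 (SE 0.32, adjusted p = 0.000932), and 2 further probes gave at least 4.19-fold and 2.27-fold. Incenp, the scaffold, had 1.09, 1.20 and 1.24 in the normal livers and 3.57, 3.66 and 2.52 in the tumors, a difference of 1.44 (SE 0.17, adjusted p = 0.00237). Cdca8, which encodes borealin, lay between them at 2.08, and its second probe gave 1.19 (0.42 with normexp).

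At the centromere and kinetochore, 3 of the 4 tested genes rose. Cenpe, a kinesin that carries chromosomes to the spindle equator, had 0.0610, 0.0933 and 0.0479 in the normal livers and 1.45, 1.46 and 0.966 in the tumors, at least 9.76-fold higher (adjusted p = 0.000302), or 1.55 on the log2 scale with normexp. Cenpa, the histone variant of the centromere, rose by 2.50 (1.64 with normexp), and Spc25 of the Ndc80 complex rose by 2.76. Spc24, the direct partner of Spc25 in that complex, did not rise. Its values were 1.75, 2.05 and 1.57 in the normal livers and 0.910, 1.21 and 1.67 in the tumors, so that tumor 3 lay within the range of the normal livers. The difference of -0.54 (SE 0.24) did not pass the test (adjusted p = 0.124), and without tumor 3 it was -0.76 and passed (adjusted p = 0.0357). Ndc80 and Nuf2, the other two subunits of the complex, were well above background in 2 tumors each and Cenpf on no array, and these 3 genes were not tested.

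Of the spindle motors and microtubule proteins, 3 of 5 tested genes were higher, none of which was well above background in any normal liver. Nusap1, which binds and stabilizes spindle microtubules, had 0.0398, 0.0493 and 0.0305 in the normal livers and 0.755, 0.710 and 0.581 in the tumors, at least 5.22-fold higher (adjusted p = 0.000116), or 1.18 on the log2 scale with normexp. Kif2c, a kinesin that takes microtubules apart, and Kif4, a chromosome-bound kinesin, were higher by at least 1.09-fold and 1.29-fold. In the tumors their values were only 0.117 to 0.173 and 0.138 to 0.212, and with background correction by normexp their log2 differences were 0.16 and 0.17 and did not pass. The call of Kif2c was also lost when any 1 array other than normal liver 2 was left out (adjusted p = 0.0836 to 0.136). For Tpx2, the spindle assembly factor that activates Aurka, the answer depended on the probe. The probe with the higher mean over the 6 arrays, which stands for the gene here, had 0.407, 0.237 and 0.130 in the normal livers and 0.313, 0.360 and 0.256 in the tumors, and the difference of 0.40 (SE 0.40) did not pass (adjusted p = 0.477). The other probe had 0.0345, 0.0292 and 0.0262 in the normal livers and 0.651, 0.511 and 0.381 in the tumors, at least 3.87-fold higher (adjusted p = 0.000145), or 0.96 on the log2 scale with normexp. Hmmr, a microtubule-binding hyaluronan receptor, differed by 0.60 and did not pass (adjusted p = 0.0937). Hmmr did pass with normexp correction (adjusted p = 0.0420), with spike-in scaling (adjusted p = 0.0304) and with the replicate number as a block (adjusted p = 0.0362). Kif11, the motor that pushes the spindle poles apart, was well above background in 1 tumor and was not tested.

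Both genes of mitotic chromosome proteins rose. Mki67 encodes the Ki-67 protein used to mark dividing cells, and its values were 0.207, 0.319 and 0.257 in the normal livers and 5.46, 5.49 and 3.23 in the tumors. The log2 difference was 4.16 (SE 0.26, adjusted p = 0.000254), and a second probe gave 4.0. Top2a, the topoisomerase that untangles sister chromatids, had 0.0371, 0.0300 and 0.0278 in the normal livers and 0.526, 0.582 and 0.376 in the tumors, at least 3.74-fold higher (adjusted p = 0.000127), or 0.84 on the log2 scale with normexp.

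In the group of the central spindle and cytokinesis all 5 tested genes rose, of which only Kif20a and Racgap1 were measured on all 6 arrays. Prc1, which bundles the antiparallel microtubules of the central spindle and whose promoter is printed above, had 0.0643, 0.0609 and 0.0607 in the normal livers and 2.60, 2.60 and 1.47 in the tumors. This gave at least 16.6-fold (adjusted p = 8.50e-05), the highest bound of the 12, or 2.38 on the log2 scale with normexp. Ect2, the exchange factor that activates RhoA at the cleavage furrow, had 0.0972, 0.189 and 0.287 in the normal livers and 0.865, 1.07 and 0.60 in the tumors, a difference of 2.24 (SE 0.42, adjusted p = 0.00951) with 2 of the 3 normal livers well above background, and 1.07 with normexp correction. Kif20a rose by 2.65 and Racgap1 by 2.57 (1.48 and 1.28 with normexp), and Anln, the anillin that links the contractile ring to the membrane, was at least 7.06-fold higher. Kif23 did not stand above background on any array.

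Foxm1, the transcription factor that acts on many promoters of this kind, had values of 0.182, 0.121 and 0.103 in the normal livers and 0.730, 0.695 and 0.560 in the tumors. The difference was 2.32 (SE 0.23, adjusted p = 0.00132), and 1 of the 3 normal livers was well above background. With normexp correction it was 0.99.

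**Figure D3:**
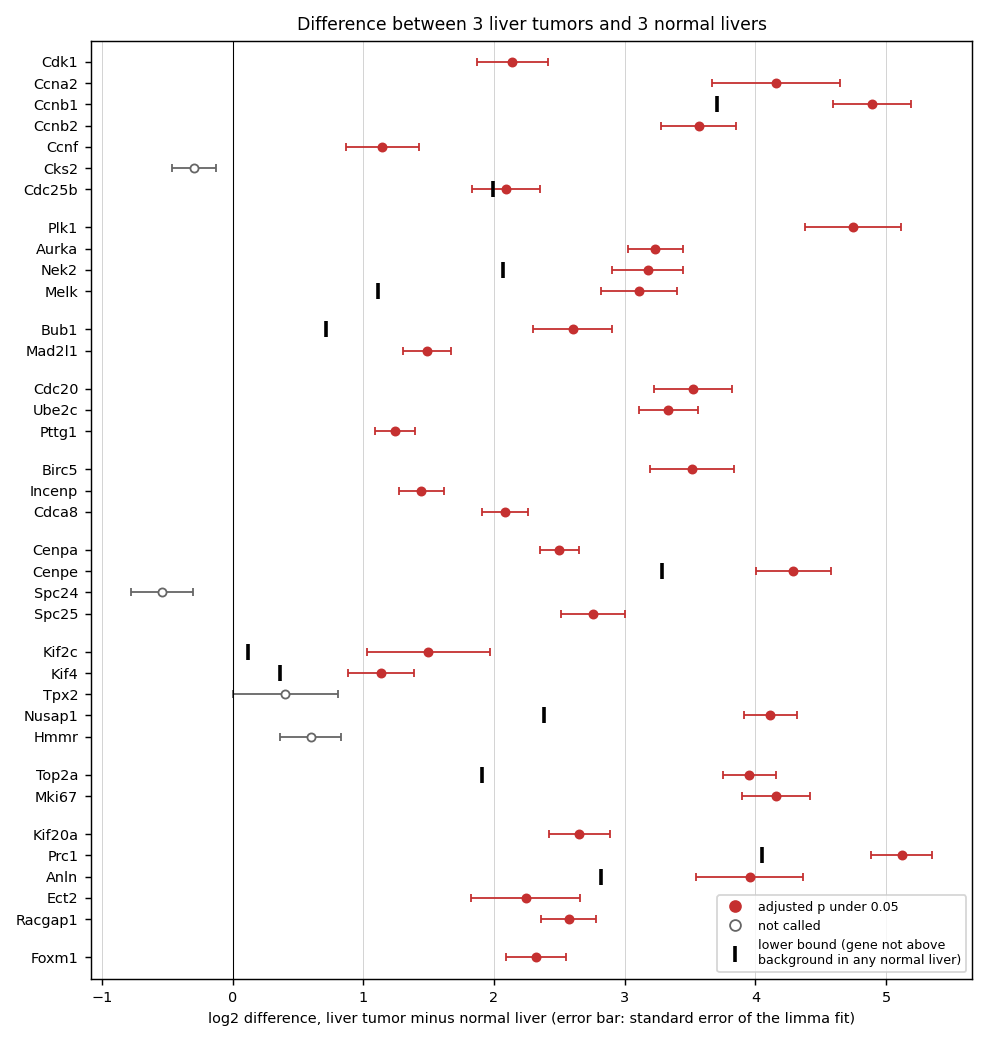
Log2 difference, liver tumor minus normal liver, for the 36 genes tested, with the standard error of the limma fit. Filled points passed the test, open points did not (Cks2, Spc24, Tpx2 and Hmmr), and a vertical tick marks the lower bound for the 12 genes seen above background in the tumors and in no normal liver.

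The 3 tumors were set side by side for the level of these genes. Across all tested probes, tumors 2 and 3 correlated at r = 0.990, tumors 1 and 2 at 0.982 and tumors 1 and 3 at 0.980. Of the 32 genes that were higher in the tumors, 31 were lowest in tumor 3, 1 in tumor 2 (Kif2c, which was highest in tumor 3) and none in tumor 1. Tumor 3 was the lowest of the 3 tumors for 34.7% of all genes tested and for 47.6% of the genes called higher. For the 15 of these genes measured on all 6 arrays, the median log2 difference from the mean of the normal livers was 2.84 in tumor 1, 2.83 in tumor 2 and 2.31 in tumor 3, and tumor 3 was lowest for all 15. Over the 32 genes, relative to the mean of tumors 1 and 2, tumor 3 lay at a median of -0.56 on the log2 scale, a ratio of 0.680, with a range from -0.87 to 0.44. The same median was -0.15 over the genes called higher and -0.00 over all genes tested. The median difference of tumor 1 from tumor 2 was -0.01, with 14 of the 32 genes higher in tumor 1, and single genes ranged from -0.60 to 0.43. With 1 array for each tumor these differences have no test, and the 32 genes are not independent of one another.

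Tumor 3 stayed the lowest for most of these genes under other scalings and another background correction. Tumor 3 was lowest for 31 of the 32 genes after quantile normalization and after scaling by the spike-in controls and for 30 after normexp background correction, with medians of -0.58, -0.71 and -0.41. Spike-in scaling moved the background too, and the median over genes called higher was then -0.31, with 69.9% of them lowest in tumor 3. These alternatives were added after the data had been seen. For the 15 higher genes measured on all arrays, the median SD on the log2 scale was 0.31 among the tumors and 0.28 among the normal livers. Over all genes called higher and measured on all arrays, these SDs were 0.21 and 0.16.

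**Figure D4:**
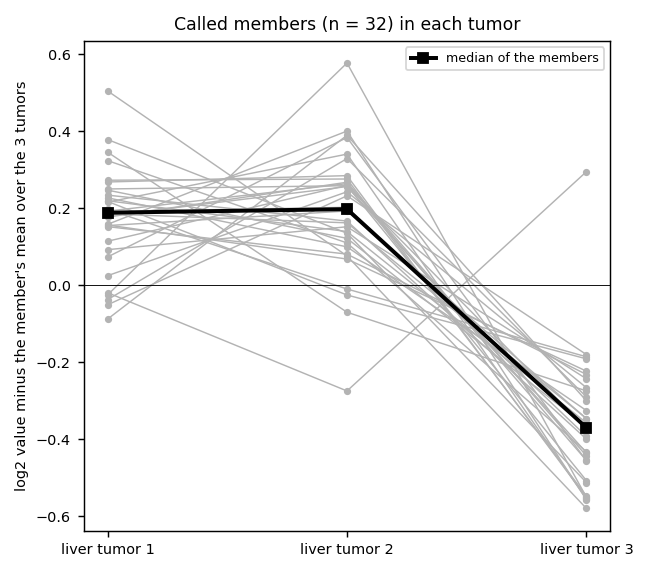
Each gray line is 1 of the 32 genes higher in the tumors, plotted as its log2 value in each tumor minus its mean over the 3 tumors. The black line is the median, and 31 of the 32 lines are lowest at tumor 3.

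To set the 45 genes in the wider process, 151 other genes of mitosis were counted in the same way. Of these, 121 were tested, and 48 were higher, 10 were lower and 63 did not pass, where 13.1% of all genes tested were higher and 21.0% lower. Of the 90 measured on all 6 arrays 22 were higher, against 11.1% of all genes so measured, and 9 were lower, against 21.2%. The median log2 difference over the 121 was 0.15, against -0.13 over all genes tested. The anaphase-promoting complex itself and its other activator Cdh1 had 1 higher and 2 lower genes of 15 tested, with small differences (Anapc4 0.55, Anapc13 -0.38 and Anapc16 -0.37). Probes of Cdc27, another subunit, disagreed. The brighter one, which stood for the gene, gave -0.21 and did not pass (adjusted p = 0.263). The other was lower, at -0.81 (adjusted p = 0.00479), or -0.53 with normexp. For the centrosome and centriole 1 of 7 rose, Cep192 by 0.93. Among cohesin, separase and shugoshin genes 4 of 13 rose, with Sgo1 at least 5.73-fold higher, Espl1 (separase) at least 1.51-fold higher and Cdca5 (sororin) higher by 2.52 on the log2 scale. Of the 10 genes of this list measured on all 6 arrays 1 was higher, near the share of all genes so measured. In condensin, which compacts the chromosomes, 5 of 7 rose, with Ncaph higher by 2.57, Smc2 higher by 1.69 and Ncapg2 at least 4.2-fold higher. Of its 4 genes measured on all 6 arrays 2 were higher.

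In the constitutive centromere network 6 of 15 rose and 1 fell. For this and the next lists, 13.1% of all genes tested were higher and 21.0% lower. Cenph was at least 2.85-fold and Cenpu at least 1.41-fold higher, Cenpt was higher by 1.31 on the log2 scale, and Cenpx fell by 0.61. Measured on all 6 arrays were 10 genes of this network, of which 4 rose and 1 fell. For the outer kinetochore and checkpoint 8 of 15 rose, among them Trip13, which remodels Mad2, by 2.52, the histone H3 kinase gene Haspin by at least 1.92-fold and Ska1 by at least 1.51-fold. With normexp correction 4 of the 15 rose, and of the 8 genes measured on all 6 arrays 1 rose, near the 11.1% of all genes so measured. The spindle and kinesin genes outside the 45 had 8 of 10 higher, with Kifc1 at least 6.54-fold, Aspm at least 4.25-fold and Ckap2 at least 3.45-fold higher, and 1 lower, Numa1 at -0.34. Of the 5 measured on all 6 arrays, 3 were higher. In cytokinesis 4 of 11 rose, with Shcbp1 at least 6.46-fold and Iqgap3 at least 2.57-fold higher and Cdca3 higher by 2.34. Of the 7 cytokinesis genes measured on all 6 arrays, 1 was higher and 2 were lower, where 11.1% of all genes so measured were higher and 21.2% lower. The 2 lower genes there were Cep55, which acts in the final cut of the bridge between daughter cells, at -1.02, and Rhoa at -0.37, whose second probe gave -0.35 and did not pass (adjusted p = 0.0791). Cep55, opposite in direction to the cytokinesis genes that rose, had values of 0.370, 0.260 and 0.302 in the normal livers and 0.144, 0.206 and 0.117 in the tumors (adjusted p = 0.0203).

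Among regulators of Cdk1 none fell. The inhibitory kinase genes Pkmyt1 and Wee1 were higher by 3.77 and 2.11, the phosphatase gene Cdkn3 was at least 3.73-fold higher, and 5 of 9 regulators rose in all, 3 of the 7 measured on all 6 arrays among them. For Pkmyt1 the values were 0.207, 0.164 and 0.141 in the normal livers and 2.49, 2.74 and 1.79 in the tumors. Among the MuvB, Myb, E2f and pocket protein genes 6 of 19 rose and 4 fell, and of the 17 measured on all 6 arrays 5 rose and 3 fell. Over all genes tested 13.1% were higher and 21.0% lower, and over those measured on all 6 arrays 11.1% and 21.2%. The lower counts of this list lay near these shares. Mybl2, which encodes B-Myb, rose by 2.44 and Rbl1 (p107) by 1.65. E2f8, a repressor of the E2f family, was lower, with values of 1.52, 1.06 and 1.99 in the normal livers and 0.139, 0.375 and 0.468 in the tumors, a difference of -2.35 (SE 0.48, adjusted p = 0.0131). Rbl2 (p130), known from the complex that silences cell cycle genes in resting cells, was lower, at -0.97, and so was Rbbp4, at -0.89. The lower genes Cenpx, Numa1, Cep55, Rhoa, Rbl2 and Rbbp4 were not among the largest changes of their groups and were chosen for mention after their values were seen. Of the genes given here with a log2 difference, Cdca5, Ncaph and Smc2 were well above background in 2 normal livers, Trip13, Wee1 and Rbl1 in 1, and E2f8 in 2 tumors. With normexp correction their log2 differences were 1.09, 1.32 and 0.92 for Cdca5, Ncaph and Smc2, 0.98, 0.88 and 0.53 for Trip13, Wee1 and Rbl1, and -1.38 for E2f8. Among genes measured on all 6 arrays, normexp gave 2.21 for Pkmyt1, 1.57 for Mybl2, 0.57 for Cenpt, 0.47 for Cep192, -0.48 for Cep55 and -0.58 for Rbl2, and Anapc13, Anapc16, Numa1 and Rhoa did not pass with it. The 19 higher genes of the other lists that are bounded all lay below their bounds with normexp, at log2 differences of 0.20 to 1.42, and 13 of them passed. Espl1, Cenpu and Ska1 were among those that did not. The lower calls depended on the scale. With spike-in scaling, which raised the median log2 difference over all tested probes by 0.21, the other mitosis genes had 49 higher and 3 lower (E2f8, Rbl2 and Rbbp4), and over all tested probes the split changed from 3112 higher and 5127 lower to 3467 higher and 1914 lower. Cep55 then stood at -0.82 and did not pass (adjusted p = 0.0546).

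DNA replication, the step before mitosis, was represented by 30 genes of origin licensing and nucleotide supply. Of 25 tested, 14 were higher, against 13.1% of all genes tested, and 1 (Tk1, named after its value was seen) was lower, with a median log2 difference of 0.47, against -0.13 over all genes tested. Of the 22 measured on all 6 arrays 11 were higher, against 11.1% of all genes so measured, and 1 was lower. The higher genes numbered 12 after scaling by the spike-in controls. Uhrf1, which carries DNA methylation through replication, rose by 3.28 with 2 normal livers well above background (1.45 with normexp correction), Rrm2, a subunit of ribonucleotide reductase, by 2.60 and Mcm5 of the replicative helicase by 2.13 (1.14 with normexp).

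**Figure D5:**
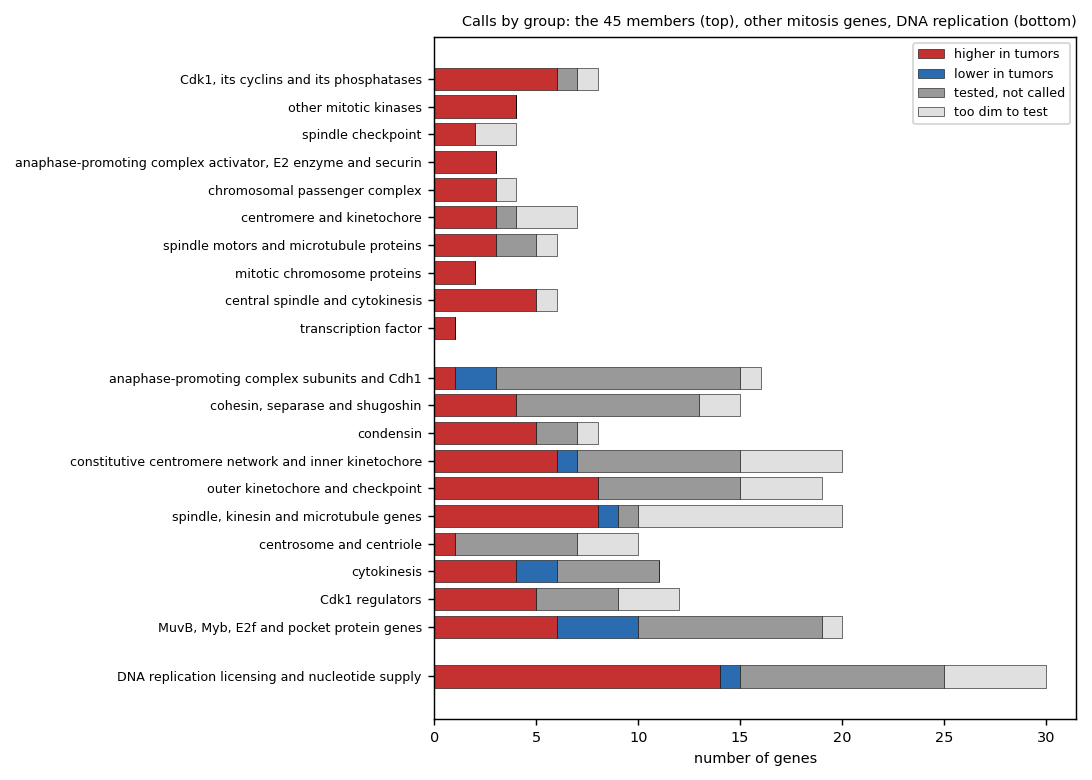
Number of genes higher, lower, tested without passing, or too dim to test, for the 10 role groups of the 45 genes (top), the 10 groups of other mitosis genes (middle) and DNA replication (bottom). The anaphase-promoting complex subunits show 1 higher gene of 15 tested, and the activator, enzyme and securin genes at the top show 3 of 3. Over all genes tested 13.1% were higher.

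Markers of the cell types in the tissue were read beside these values. Over all genes tested 13.1% were higher and 21.0% lower. A summed value adds the signals of different probes, so the brightest probe weighs most, and it does not rank genes by abundance. Of 10 hepatocyte genes 1 rose (Apoa1, 0.90), 1 fell (Tat, -1.43) and 8 did not pass, and their summed value was 11641, 11262 and 10588 in the normal livers and 10934, 11040 and 10513 in the tumors. Alb, whose probe was the brightest of them, differed by -0.06 (adjusted p = 0.760). For T and B lymphocytes 1 of 6 tested genes rose, Cd4 by 1.59, and this gene made up most of the summed value of 70.7, 66.9 and 67.2 in the normal livers and 246, 192 and 142 in the tumors. A second Cd4 probe was lower, at -0.48 (adjusted p = 0.0383), Cd3e differed by 0.03 (adjusted p = 0.904), and Cd8a did not stand above background on any array. Of 6 erythroid precursor genes tested 2 fell (Alas2, -2.31, and Klf1, -1.78, or -1.08 with normexp) and 1 rose (Epor, 0.98), and Gata1 did not stand above background on any array. Their summed value, mostly Hba-a1, was 494, 303 and 199.6 in the normal livers and 167, 337 and 307 in the tumors.

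Among 9 macrophage genes 5 were lower and none was higher, where 21.0% of all genes tested were lower and 13.1% higher. Clec4f stood at -1.84, Vsig4 at -1.27 and Cd5l, whose probe was the brightest, at -1.08. The summed value of the 9 genes was 134, 108 and 182 in the normal livers and 91.8, 57.7 and 61.6 in the tumors. With quantile normalization 3 of the 9 were lower, and with spike-in scaling 2, Clec4f and Vsig4. For stellate cells and fibroblasts 2 of 9 rose and 3 fell (Lrat -1.83, Col1a1 1.58 and Des -0.85, the last well above background in 2 tumors, with -0.91, 1.11 and -0.33 with normexp). Their summed values were 11.7, 9.91 and 7.73 in the normal livers and 11.8, 17.0 and 11.8 in the tumors, with the probe of Col1a2 the brightest. The endothelial genes had 1 of 8 higher (Emcn, 0.70, not passing with normexp correction) and 1 lower (Stab2, -0.78). Stab2 did not pass with spike-in scaling and was not matched by its other 2 probes, at 0.09 and 0.02 (adjusted p = 0.807 and 0.947). The endothelial genes summed to 63.0, 55 and 66.7 in the normal livers and 50.9, 51.9 and 48.4 in the tumors, with the probe of Kdr the brightest. None of the 5 tested neutrophil genes passed (sums of 164, 171 and 150 against 178, 184 and 133, with the probe of Csf3r the brightest and Mpo above background on no array). The 5 tested cholangiocyte genes did not pass either (sums of 2.67, 3.35 and 2.59 against 2.22, 2.25 and 2.48, with the probe of Spp1 the brightest). The part of any of these cell types in the values of the 45 genes was not tested.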

How the data were processed

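The authors deposited, for each of the 6 SurePrint G3 Mouse GE arrays, the Feature Extraction output (version 10.7.3.1 by the file headers, 12.0.3.1 by the labels) with the processed signal intensity, background subtracted and spatially detrended. They also deposited a table of the same signal as a ratio to each array's 75th percentile, used here as an alternative. The intensities were divided by the 75th percentile of all spots of their array and put on the log2 scale, without control and outlier spots and with spots of 1 probe averaged. A probe was tested when every array of 1 tissue or both had it well above background, which held for 24901 of 55681 probes. The tissues were compared with limma 3.58.1 (lmFit, eBayes, two-sided) in R 4.3.3, with Benjamini-Hochberg adjustment over these probes. A gene was represented by its brightest tested probe. Printed expression values are linear and log2 differences come from the fit. Depth has no counterpart on arrays, and their number limits the precision. The script was tested on simulated data.

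Probes were named through RefSeq annotation of GRCm38.p6 by accession (27235), symbol (3581) or synonym (565), and 24300 kept the array's name. The deposited table had 0 columns without a sample. Values on every array are given for the gene with the largest and the smallest absolute change in each role and for Cdk1, Top2a, Mki67 and Foxm1. Of each other list up to 3 called genes with the largest change are named. The 45 genes, the lists and the motifs were chosen with earlier results of these data known. Tables and figures were made with Python 3.11.15 (matplotlib 3.10.9, numpy 2.4.6, pandas 2.3.3, scipy 1.17.1). Alternatives covered the background correction, the scaling, the filter on dim probes, the choice of probe, the value table, a trend in the variance, the replicate number as a block, single arrays left out, and the methods' criteria (the methods' t-test in its unpaired form, since they do not say which samples were pairs, a fold of 2 and an expression value above 1).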

Additional observations from a re-analysis of the deposited data

How the results depend on the processing

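Of the 32 genes higher in the tumors, 29 were called under every alternative that tested them and none changed sign. Ccnf lost the call under 6 alternatives, Kif2c under 10 and Kif4 under 3. With normexp background correction the median log2 difference of the genes tested fell from 2.63 to 1.20, and 6 other mitosis genes were lower in place of 10. Quantile normalization left 5 of these lower and spike-in scaling 3, with 1914 probes lower in place of 5127. With no filter on dim probes 2071 probes were higher and 2601 lower, the median over all 45 genes was 2.24, and 3 other mitosis genes were lower. The filter to probes above background on all 6 arrays tested fewer genes and gave 15 of the 45 genes and 22 other mitosis genes higher. The methods' t-test with its fold and expression thresholds gave 1006 probes higher and 1030 lower of 14842 (746 and 918 after Benjamini-Hochberg), 20 of the 23 genes past the threshold higher (19 after Benjamini-Hochberg), and 10 other mitosis genes higher and 1 lower. Leaving out 1 array at a time gave 2346 to 2804 probes higher and 2608 to 4367 lower, 30 to 31 of the 45 genes higher and 0 to 1 lower (Spc24 without tumor 3), medians of 2.51 to 2.85, and 41 to 45 other mitosis genes higher and 4 to 6 lower. Without normal liver 3 the Tpx2 difference turned from 0.40 to -0.0175, without normal liver 1 it was 0.81, and with the mean of its probes it was 2.24 and passed. Hmmr passed with normexp correction, with spike-in scaling, with the replicate block and without normal liver 1. Except where an alternative tested fewer genes or samples, the cause was not tested.

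With the replicate number as a block, 30 of the 45 genes were higher (Ccnf, Kif2c and Kif4 lost the call and Hmmr gained it), 46 other mitosis genes were higher and 7 lower, and 2805 probes were higher and 4216 lower. Deviations from the tissue mean correlated at 0.07, 0.18 and 0.05 across probes for same-numbered samples, and at -0.20 to 0.10 for the others. Normal livers 1 and 2 correlated best with the tumor of their number, and normal liver 3 with tumor 1 (0.10). Deviations from a mean of 3 samples depend on one another, so these correlations cannot decide whether the numbers mark pairs. The samples were treated as unpaired because neither the labels nor the methods say which were pairs.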
